A study of Homo sapiens with 4 samples.

Results

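The crosslink sites of PLEC, the gene for the cytoskeletal linker plectin, were taken from an iCLIP experiment with PDCD4 in MCF10A cells, an established non-transformed line of human breast epithelial cells. All samples came from wild-type cells grown in the same medium (horse serum, epidermal growth factor, insulin, hydrocortisone and cholera toxin), cross-linked with UVC light and not otherwise treated. There were 2 replicates immunoprecipitated with an antibody against PDCD4 and 2 with isotype control IgG. In iCLIP, reverse transcription tends to stop at the nucleotide that carries the cross-linked protein, so the end of a cDNA marks a site of contact at single-nucleotide resolution. For each immunoprecipitation a single list of sites kept by peak calling was deposited. The replicates are pooled in it, and the score of a site is its count of cDNAs. Every site whose gene label held the symbol PLEC was taken: 1062 of 158922 sites in the PDCD4 list and 61 of 111361 sites in the IgG list. No value per replicate exists in these lists, so there is no spread between replicates and no test between PDCD4 and IgG, and all intervals given here are 95% intervals that cover counting error alone.

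Plectin is a very large protein of the plakin family that ties intermediate filaments to actin, to microtubules and to the integrin of hemidesmosomes, the junctions that anchor epithelial cells to the basement membrane. An actin-binding domain at its N-terminus is followed by the plakin domain, a long coiled-coil rod and a C-terminal series of plectin repeat domains that bind intermediate filaments. Alternative first exons give the isoforms different N-termini, and splicing can remove the exon of the rod. PDCD4, the target of the antibody, is an RNA-binding protein best known for blocking the helicase of translation initiation, eIF4A.

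In GRCh38 the gene spans positions 143915153 to 143976734 of chromosome 8 and is read from the minus strand. GENCODE release 44 gives it 15 transcripts, and positions are described on the reference transcript PLEC-202. Its 32 exons make an mRNA of 14804 nt with a coding sequence of 13644 nt (4547 codons without the stop codon) and a 3′UTR of 1024 nt. Exon 1 is one of the alternative first exons, exons 2 to 8 encode the actin-binding domain, exons 9 to 30 the plakin domain, exon 31 (3381 nt) the rod, and exon 32 (7243 nt) the repeat domains, the C-terminus and the whole 3′UTR. Every PLEC site in both lists lay on the minus strand inside this gene, and none carried the label of a second gene. The cells were epithelial by their markers: 10 of 10 breast epithelial marker genes had a PDCD4 site and 9 of 10 an IgG site. KRT14 was at 0 in the IgG list and had 1 PDCD4 site with 3 cDNAs. All 9 marker genes of immune, endothelial, stromal, muscle and liver cells were at 0 cDNAs in both lists.

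PLEC was selected on its summed scores in these lists, the ratio over IgG and the number of sites above a score of 5, so these values describe the choice and were not tested. In the PDCD4 list, PLEC held 4278 cDNAs, 1.05% of all listed cDNAs (1.01% to 1.08%). In the IgG list it held 193 cDNAs, or 0.0699% (0.0607% to 0.0805%). The log2 ratio of these shares was 3.90, which ranked 105 among 9594 genes with at least 10 cDNAs over both lists, and 18.8% of those genes had a log2 ratio of 1 or more. Among sites with a score greater than 5, the filter named in the methods, PLEC had 226 PDCD4 sites with 2031 cDNAs against 3 IgG sites with 18 cDNAs. The log2 ratio was then 4.78, rank 12 of 1525 genes, of which 27.5% reached 1. At the threshold itself, 99 PDCD4 sites of PLEC had a score of 5 and 66 a score of 6. The share of sites above the threshold was 21.3% (18.9% to 23.8%) for PLEC and 1.35% (1.29% to 1.41%) for all other PDCD4 sites, with mean scores of 4.03 and 2.57. In the IgG list it was 4.92% (1.69% to 13.5%) for PLEC and 0.687% (0.640% to 0.738%) for all others. RNA abundance was not analysed here, so more PLEC mRNA and more crosslinking per mRNA cannot be told apart in these values. The bearing of the peak-calling cutoff on these shares and scores was not tested either.

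Coding sequence held most of the PDCD4 sites of PLEC. It contained 868 of the 1062 sites, or 81.7% (Wilson interval 79.3% to 83.9%), against 25 of 61 IgG sites, or 41.0% (29.5% to 53.5%). The 3′UTR held 100 PDCD4 sites (9.42%, 7.80% to 11.3%) and 6 IgG sites (9.84%, 4.59% to 19.8%), shares whose intervals overlapped. Introns held 85 PDCD4 sites (8.0%, 6.52% to 9.79%) and 29 IgG sites (47.5%, 35.5% to 59.8%), although they make up 72.4% of the length of the gene. The 5′UTRs of all transcripts held 6 PDCD4 sites and 1 IgG site, and an exon annotated only in a non-coding retained-intron transcript held 3 PDCD4 sites. The density was 9.77 PDCD4 sites per 100 nt in the 3′UTR, 5.79 in all annotated coding sequence and 0.191 in introns. The coding share of PDCD4 sites rested on treating the rod exon as coding: with introns of any transcript taken first, it was 64.7%, since a rodless transcript places exon 31 in an intron.

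**Figure D1:**
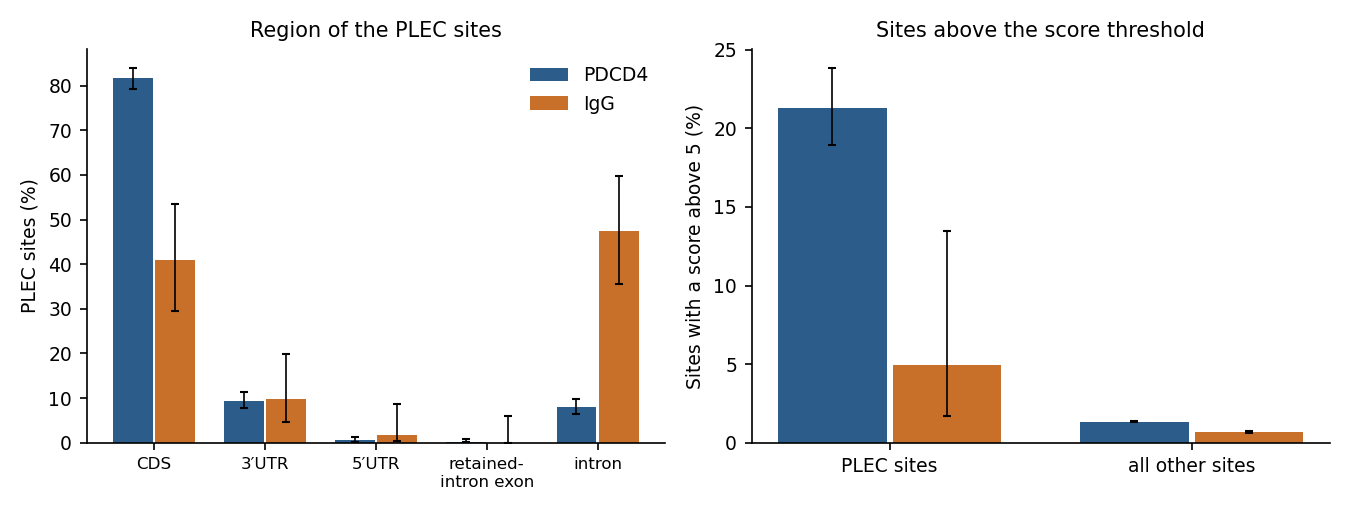
Left, share of PLEC sites (%) in each region, for the PDCD4 list (1062 sites) and the IgG list (61 sites); right, share of sites (%) with a score above 5 among PLEC sites and among all other sites. Bars are shares with 95% Wilson intervals; coding sequence took 81.7% of PDCD4 and 41.0% of IgG sites, and introns 8.0% and 47.5%.

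Along the spliced mRNA the PDCD4 sites thickened towards the 3′ end. Exon 1 held 4 sites with 17 cDNAs, or 1.61 sites per 100 nt. The exons of the actin-binding domain held 20 sites with 72 cDNAs (2.81 per 100 nt), and those of the plakin domain 105 sites with 370 cDNAs (3.26 per 100 nt). The rod exon followed with 181 sites and 669 cDNAs (5.35 per 100 nt). The coding part of exon 32 held 562 sites and 2468 cDNAs (9.04 per 100 nt), that is 57.8% of exonic sites and 61.9% of exonic cDNAs in 42.0% of the mRNA. The 3′UTR, with 100 sites and 390 cDNAs, had 9.77 sites per 100 nt. On the log2 scale, the density of the repeat-domain exon exceeded that of the rod exon by 0.76 (counting interval 0.51 to 1.00), and that of exons 31 and 32 together exceeded the earlier coding exons by 1.32 (1.05 to 1.60). The 3′UTR exceeded the coding sequence by 0.62 (0.32 to 0.92). When sites within 20 nt of each other were merged into 1, the ratio of the repeat-domain exon over the rod exon was 0.33 (-0.18 to 0.83), an interval that holds 0, and that of the 3′UTR over the coding sequence turned to -0.10 (-0.91 to 0.71).

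The IgG sites, though few, were spread over the exons in like proportions. Of 31 exonic IgG sites, 18 lay in the coding part of exon 32, a share of 58.1%, while 4 lay in the rod exon, 3 in exons 9 to 30 and 6 in the 3′UTR. The log2 density ratio of exon 32 over exon 31 was 1.29 in this list, with a counting interval of -0.27 to 2.85 that holds the PDCD4 value. By position, 21 of the 31 exonic IgG sites lay within 10 nt of a PDCD4 site, at a median distance of 1 nt, where 47.0% of the mRNA lies as near to one. Of the other 30 IgG sites, outside these exons, none did, and their median distance was 676 nt. PDCD4 sites were sparse there, with 85 in 44590 nt of introns. The share of that sequence within 10 nt of a PDCD4 site was not computed, so this count is no contrast with the exonic one. According to the methods, sites found with IgG were subtracted before peaks were called, and 8 PLEC positions are nevertheless listed in both files.

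**Figure D2:**
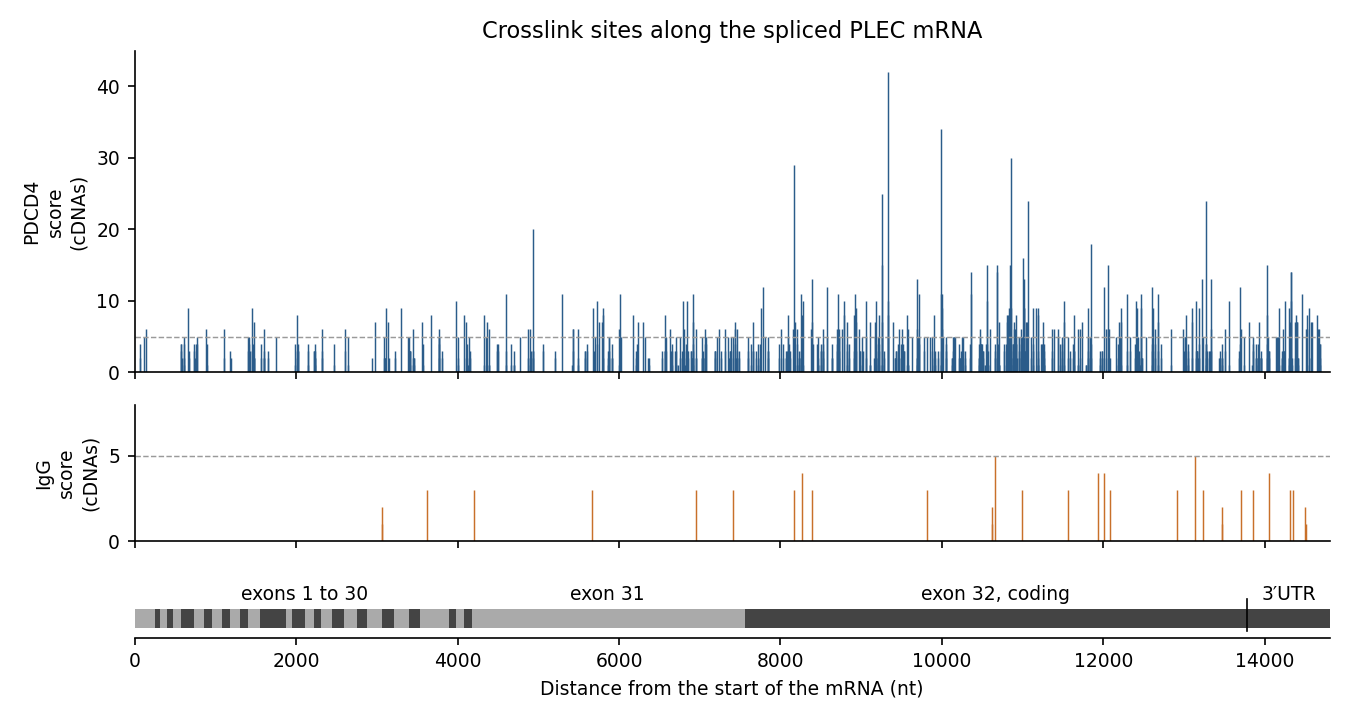
Score (number of cDNAs, linear axes of different range) of each PLEC site in the PDCD4 list (top) and the IgG list (middle) against distance from the start of the spliced mRNA (nt), with the exons in alternating greys below, a vertical mark at the end of the coding sequence and the dashed lines at a score of 5. PDCD4 scores reach 42 in exon 32, and no exonic IgG score is above 5.

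The sites fell into dense runs. Joined over gaps of at most 20 nt, the 972 exonic PDCD4 sites made 201 clusters, 26 of them single sites, that together covered 19.9% of the mRNA. The median cluster held 3 sites, and 544 sites had a neighbour at the adjacent nucleotide. The lists are the output of peak calling, and low scores were listed mostly within a few nt of other sites. How far the runs follow from that calling was not tested. The 10 largest clusters held 845 of 3986 exonic cDNAs (21.2%), and all of them were in exon 32, 1 of these in the 3′UTR. The largest spanned 104 nt (mRNA positions 10957 to 11060, chr8:143918897-143919000) and held 37 sites with 169 cDNAs, 4.24% of the exonic total. The second, just upstream at mRNA positions 10795 to 10859, held 23 sites with 132 cDNAs, and another large one at 10883 to 10925 lay between them with 13 sites and 56 cDNAs. At the other extreme, the longest stretch of mRNA without a PDCD4 site was 438 nt, between positions 136 and 574.

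Of the 10 PDCD4 sites with the highest scores, 9 lay in exon 32 and 1 in the rod exon. The highest, with a score of 42, was at codon 3067 (position 143920622), and 65 cDNAs ended within 10 nt of it, with no IgG cDNA within 50 nt. Scores of 34 at codon 3284, 30 at codon 3573 and 29 at codon 2677 followed. The site at codon 2677 had 3 IgG cDNAs within 10 nt. In the rod exon the highest score was 20, at codon 1600 (position 143925131). The 30 nt after each of these 10 sites occur at a single place in the genome and in the transcripts. Over all PLEC sites, 15 of 1062 were followed by a stretch that is not unique, all of them in exon 32, with 63 cDNAs in total.

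Plectin repeats are copies of each other, so exon 32 allows like stretches of one mRNA to be compared. The C-terminal part of the protein was searched for its own copies, with at most 6 units of equal length allowed. The search gave 6 units of 196 residues, from residue 2689 to residue 4466, with pairwise identities between 31.1% and 78.1%. The 6 units held between 49 and 59 PDCD4 sites each, and their densities ran from 8.33 per 100 nt in copies 4 and 6 to 10.0 in copy 3. Neighbours in this order differed by less than their counting error. Inside the copies the density was 9.01 per 100 nt and between them 9.07, a log2 ratio of -0.01 (-0.25 to 0.23). The stretches outside the copies were less even. The 417 nt before copy 4 held 80 sites with 390 cDNAs, 19.2 sites per 100 nt, and contain both of the largest clusters above. The 447 nt before copy 6 held 18 sites (4.03 per 100 nt), and the 246 nt of coding sequence after the last copy held 12 (4.88 per 100 nt).

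**Figure D3:**
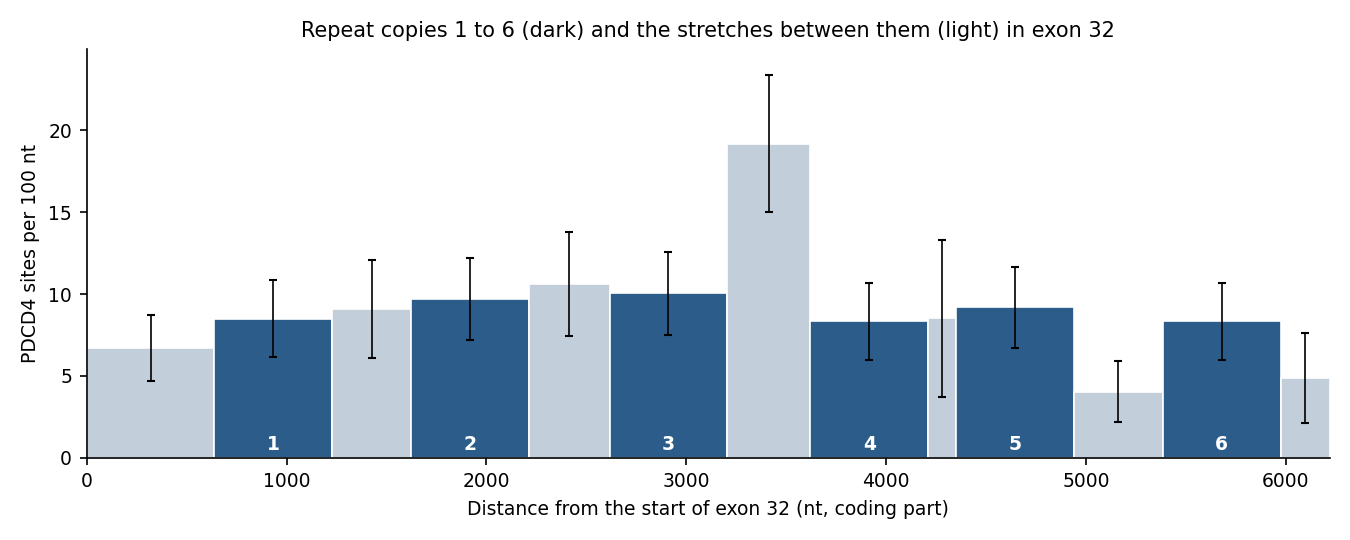
PDCD4 sites per 100 nt in the 6 repeat copies (dark, numbered) and in the stretches before, between and after them (light) against distance from the start of exon 32 (nt), with bar widths to scale and error bars of 1.96 times the square root of the site count. The copies lie between 8.33 and 10.0 sites per 100 nt, and the stretch before copy 4 reaches 19.2.

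With the 6 copies aligned codon by codon, a site recurred at the same place in some of them. In a given copy, between 15.8% and 21.9% of the 196 codons held a PDCD4 site. Aligned codons 24, 127 and 175 held a site in all 6 copies, 12 aligned codons held one in at least 4 copies, and 81 held none. At codon 127, the cDNAs in copies 1 to 6 were 17, 1, 28, 5, 14 and 3. At codon 24 they were 14, 6, 2, 4, 2 and 6. The same codon was used in 4 of the 6 copies at both of these places, so the sequence around them is partly shared. At codon 175, with 5, 7, 2, 8, 3 and 1 cDNAs, the most frequent codon occurred in 2 copies. The next aligned codon, 25, held a site in 5 copies, with 33 cDNAs in copy 2.

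The bases just after a site differed sharply from those of the whole mRNA, which is rich in G and C (66.8%). At the listed nucleotide, U made up 22.3% of PDCD4 sites (19.8% to 25%) against 13.7% of the mRNA, C 38.3% against 30.9%, and G 21.3% against 35.9%. At the next nucleotide, A was at 47.2% (44.1% to 50.4%) against 19.5%, and G at 6.58% (5.19% to 8.32%). At the nucleotide after that, C was at 42.3% and G at 13.0%. At 3 nt after the listed nucleotide, G was at 33.7%. The 31 exonic IgG sites of PLEC had A at 51.6% (34.8% to 68.0%) and G at 6.45% (1.79% to 20.7%) at the next nucleotide. The exonic sites of other genes had A at 40.6% and G at 3.65% there in the PDCD4 list, and A at 37.0% and G at 3.47% in the IgG list. At the listed nucleotide of other genes, U was at 43.4% (PDCD4) and 47.3% (IgG), where their transcripts have 26.0% and 26.4%.

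Read the other way, the pair of bases that follows a position went with a wide range in how often that position was listed. Of all positions of the PLEC mRNA, 6.57% were PDCD4 sites. Before AU this was 41.7% (121 of 290 positions, 36.2% to 47.5%), before AC 27.8%, before UA 25.3% and before UC 21.9%. Before GG it was 0.238% (4 of 1678 positions). Over other genes, AU and AC were likewise the highest pairs in the PDCD4 list (2.94 and 2.87 times the rate over all pairs), and GG the lowest (0.0494 times). In the IgG list, AU was the highest (2.77 times) and GG the lowest (0.0506 times). Within PLEC, positions before AU or AC, a pair of contexts chosen after these values were seen, held 318 of 972 PDCD4 sites, a share of 32.7%, in 6.74% of the mRNA. Their share grew with the score: 24.0% (21.1% to 27.1%) of sites with a score of 1 to 5, 59.9% (52.4% to 66.9%) of those from 6 to 10, and 75.6% (61.3% to 85.8%) of those above 10. Of the 10 highest sites, 8 lay before AU or AC. Sites with low scores often flanked a higher one: at mRNA positions 9334 to 9337 the scores were 5, 42, 8 and 10. Such flanking sites, kept by peak calling, were not separated from the rise with the score. The cause of this pattern was not tested.

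The contexts were unevenly spread over the mRNA, and the difference between the rod and the repeat exon was smaller relative to their rates. The rod exon, with 44.4% G and 8.10% U, had AU or AC after 3.55% of its positions, against 8.06% in the coding part of exon 32 (33.6% G and 15.2% U). At those positions the rod exon was listed at 47.5% (57 of 120, 38.8% to 56.4%) and exon 32 at 37.5% (188 of 501, 33.4% to 41.8%). At all other positions the order was the reverse, with 3.80% listed in the rod exon and 6.54% in the coding part of exon 32. When each position was given the mRNA-wide rate of its pair, the rod exon held 1.15 times, exon 32 1.25 times and the 3′UTR 1.28 times as many sites as these rates give. The log2 difference between exon 32 and the rod exon, 0.76 by length, was 0.13 on this footing. Exons 1 to 30 stood apart, at 0.449 times the sites of these rates, and at 15.2% (11.6% to 19.6%) before AU or AC. Within exon 32 the stretch before copy 4 remained the highest (2.31 times) and that before copy 6 the lowest (0.470 times).

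**Figure D4:**
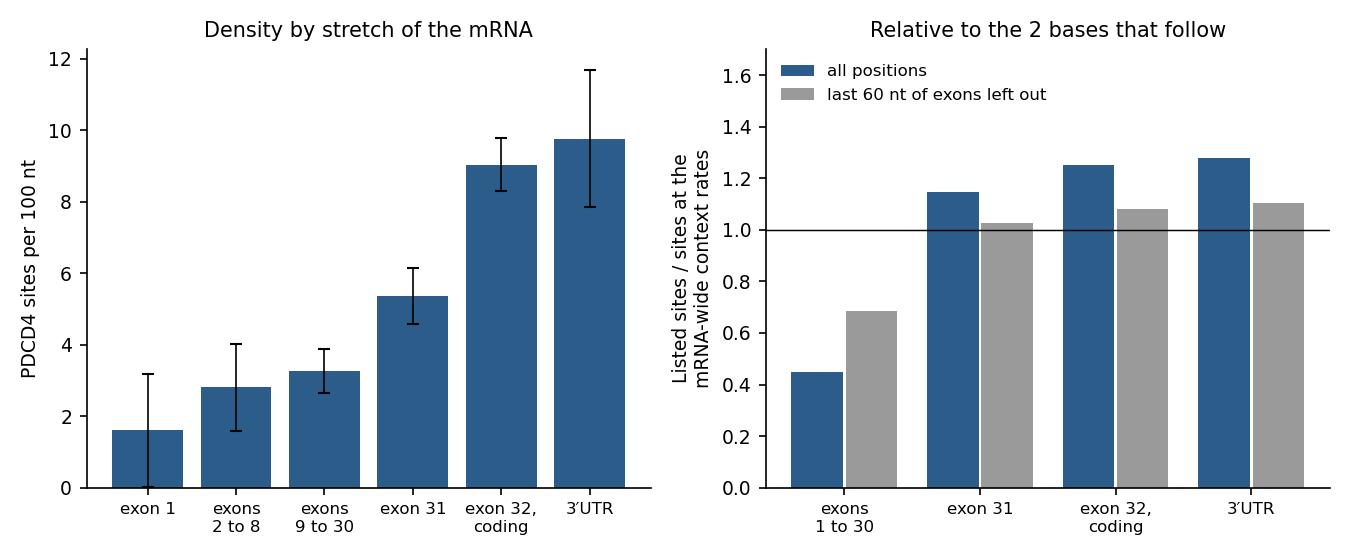
Left, PDCD4 sites per 100 nt in consecutive stretches of the PLEC mRNA, with error bars of 1.96 times the square root of the site count; right, listed sites divided by the number given by the mRNA-wide rate of the 2 bases that follow each position, over all positions and with the last 60 nt of exons 1 to 31 left out. The density rises from 1.61 to 9.77 per 100 nt, while on the right exon 31, exon 32 and the 3′UTR lie between 1.02 and 1.28.

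Codon position was set against the same rates, which come from these same PLEC sites. Of 868 coding sites, 38.7% fell on base 1 of a codon, 23.0% (20.4% to 26.0%) on base 2 and 38.2% on base 3. Base 2 was followed by G in 52.7% of codons and base 1 in 18.3%. Relative to the rates of the following pairs, the values for bases 1, 2 and 3 were 0.979, 1.22 and 0.874, so the order of the positions was not the same on this footing. Among 25 coding IgG sites, 12 fell on base 1, 1 on base 2 and 12 on base 3.

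Among 252 pentamers that occur at least 20 times in the mRNA, the share of occurrences within 10 nt of a PDCD4 site was highest for AUCAU (18 of 21 occurrences, 85.7%) and then for UUCCA (80.0%). The 10 highest also held pentamers rich in G such as AAGGG (75.9%), and the 10 lowest held pentamers with UC such as UCCUG (21.9%). The share was lowest for GCCCG (4 of 29 occurrences, 13.8%). Of all positions, 47.0% lay this near to a site. In other genes, 9 of the 10 highest pentamers were also above the average for PDCD4 and 6 for IgG, and all 10 of the lowest were below it in both lists.

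The ends of exons were nearly bare of sites. In the 17 junction exons of at least 120 nt, the last 60 nt held 3 PDCD4 sites with 12 cDNAs, while the 60 nt before them held 46 sites with 166 cDNAs, a log2 ratio of -3.94 (-5.62 to -2.25). Over exons 1 to 31, 8 of 310 sites lay within 60 nt of the exon end. The starts of exons were not bare: the first 10 nt of exons 2 to 32 held 20 sites, 6.45 per 100 nt. Short exons were often without sites. Among exons 1 to 30, 7 of the 10 under 100 nt had no PDCD4 site, against 2 of the 20 from 100 nt upwards. The 9 exons without a site had a median length of 90 nt. Among exons without a site were exons 2 to 5 of the actin-binding domain, of 62 to 93 nt. Leaving out the last 60 nt of exons raised the density of exons 1 to 30 to 5.08 per 100 nt, near the 5.45 of the rod exon, and lowered the log2 ratio of exons 31 and 32 over the earlier coding exons from 1.32 to 0.58 (0.30 to 0.86). Relative to the following bases, exons 1 to 30 then stood at 0.684 times. Why exon ends lack sites was not tested.

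**Figure D5:**
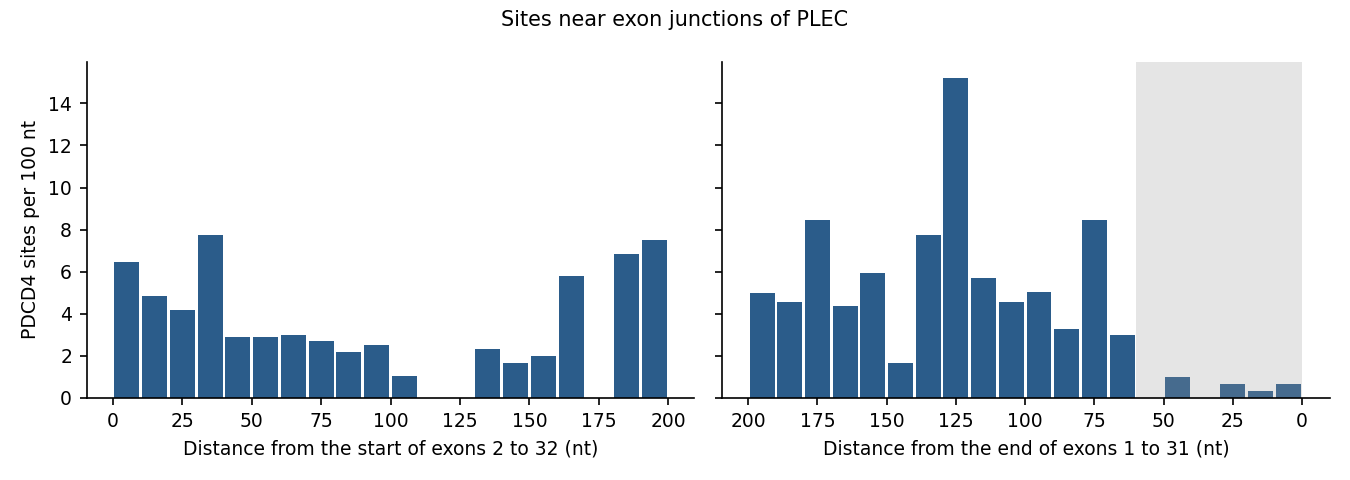
PDCD4 sites per 100 nt in bins of 10 nt by distance (nt) from the start of exons 2 to 32 (left) and from the end of exons 1 to 31 (right, running towards the junction), over exons that reach each distance. Bins in the last 60 nt (grey) lie at or below 0.968 sites per 100 nt, and the first bin after an exon start is at 6.45.

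Within these limits some exons of the plakin and actin-binding domains were well covered. Exon 13 had 14 sites with 53 cDNAs (9.03 per 100 nt) and exon 6, in the actin-binding domain, 13 sites with 46 cDNAs (7.78 per 100 nt). Exon 30, of 99 nt, had the highest density of the early exons, with 10 sites and 35 cDNAs (10.1 per 100 nt). In all, 23 of the 32 exons held a PDCD4 site, 18 a site with a score above 5, and 4 an IgG site. The highest score in exons 1 to 30 was 10, in exon 29.

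Of the alternative first exons, 2 had PDCD4 sites. GENCODE places 11 exons upstream of the shared body, 2300 nt in all. The first exon of PLEC-202 held 4 sites with 17 cDNAs and a highest score of 6, and that of PLEC-201 (693 nt) held 2 sites with 5 cDNAs. The other 9 upstream exons had no PDCD4 site, and that of PLEC-207 had 1 IgG site with 3 cDNAs. Apart from those of PLEC-201 and PLEC-202, these exons were 32 to 205 nt long, and they end at junctions, where sites were rare throughout.

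Intronic PDCD4 sites were concentrated in the body of the gene. The 31 introns of the reference transcript, 9641 nt in all, held 67 sites in 8 introns, 6.95 per kb, while the 37137 nt upstream of its first exon held 18 (0.485 per kb). The IgG sites were spread otherwise, with 5 in the body introns (0.519 per kb) and 24 upstream (0.646 per kb). Intron 25 alone, of 1110 nt, held 37 of the 67 body sites with 129 cDNAs, 5 of them above a score of 5, and 1 IgG site with 3 cDNAs. Of its sites, 16 lay in the last 100 nt before exon 26, where a run of 13 sites with 39 cDNAs ended 34 nt from the splice site, and the strongest, with a score of 12, lay 332 nt from it. Exon 26, which follows, had 12 sites with 32 cDNAs (8.63 per 100 nt). The next introns were intron 5 with 9 sites and intron 3 with 8. All 3 IgG sites with a score above 5 were intronic, each with a score of 6, 1 of them in intron 3 and 38 nt from a PDCD4 site, the others upstream at 1081 and 2741 nt from the nearest PDCD4 site. The 30 nt after the last of these are not unique.

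Set against other mRNAs per length, PLEC was high but not the highest in density, and led in score. PLEC was selected on its summed scores and its number of sites above a score of 5. The ranks that follow therefore describe the choice and are no support for it. Among 29 genes with at least 100 exonic PDCD4 sites, it had 65.7 sites per kb of mRNA (rank 4, median 24.5), where ACTB, for cytoplasmic actin, had 158. Its coding sequence had 63.6 sites per kb (rank 4) and its 3′UTR 97.7 (rank 6). Its mean exonic score of 4.10 and its 22.3% of exonic sites above a score of 5 were the highest of the 29, ahead of ACTB with 3.72 and 17.8%. The U content at its sites was 1.63 times that of its mRNA, rank 16 of these genes, whose median was 1.72. The other genes with the most exonic PDCD4 cDNAs were ACTB, the scaffold AHNAK, the chaperone HSP90AA1, non-muscle myosin MYH9 and the intermediate filament VIM, with 1063, 961, 845, 731 and 591, against 3986 for PLEC. In the IgG list they were PTGES with 256, AHNAK with 244, SLC7A5 with 238, NUCKS1 with 227 and HIPK2 with 191, against 89 for PLEC. AHNAK, whose coding sequence of 17673 nt is longer, had 17.3 coding sites per kb.

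The genes whose sites were divided over coding sequence, UTRs and introns most like those of PLEC, among 754 genes with at least 100 PDCD4 cDNAs, were DSP, EPRS1, SON, SRCAP and EEF2. Their summed differences from PLEC over 4 region shares were 5.71, 8.82, 8.85, 10.7 and 11.0 percentage points, where the median gene differed by 131. DSP, which encodes desmoplakin, another plakin, had 82.4% of its 85 sites in the CDS and 9.41% in the 3′UTR, but 8.25 sites per kb of mRNA and a log2 ratio over IgG of 0.80.

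The partners of plectin at the hemidesmosome and in the intermediate filament network had sites in smaller numbers. All 11 genes of the list had a PDCD4 site and 10 an IgG site. The share of all expressed genes with a listed site was not computed, so these counts are no result about the partners. Over every listed site, the 10 with at least 10 cDNAs had a median log2 ratio of 0.89, with 8 above 0, where the median of all genes under that minimum was -0.08. Of these 10, 5 reached a log2 ratio of 1, beside the 18.8% of all genes. VIM, for vimentin, had 597 PDCD4 and 13 IgG cDNAs (log2 ratio 4.85), and KRT5, a basal keratin, 352 and 74 (1.67). ITGB4, the integrin chain that binds plectin, had 439 and 118 (1.32), the laminin chain LAMB3 401 and 122 (1.14), and the tetraspanin CD151 53 and 11 (1.60). DST, whose epithelial product is the hemidesmosomal plakin BPAG1, had 350 and 198 (0.25), and the other integrin chain ITGA6 had 133 and 99 (-0.15). Above a score of 5, 8 of the 11 genes had a site, where 1525 of 14416 labelled genes had one in either list. Of the 8, 5 had a log2 ratio above 0 and 3 below. Their median was 0.95, beside 0.85 for all genes with such a site. The latter is the value of a gene with 6 PDCD4 cDNAs and no IgG cDNA at such sites. It lies at the floor of this filter, so the closeness of the medians is not informative. A log2 ratio of 1 was reached by 4 of the 8, beside the 27.5% of all genes. DST reached it on 1 site with 7 cDNAs. The direction turned for ITGB4, with 35 PDCD4 and 13 IgG cDNAs (-0.59), and for the laminin chain LAMA3, with 9 and 6 (-1.44) against 0.50 over every listed site. KRT5 (104 and 0) and VIM (228 and 0) had no IgG cDNA at such sites.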

How the data were processed

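Crosslink sites from iCLIP of PDCD4 (2 replicates) and IgG (2 replicates) in MCF10A cells were analysed. The authors used iCount with the human genome of Ensembl release 88 (GRCh38), described a subtraction of IgG sites before peak calling, merged the replicates and deposited 1 list per immunoprecipitation. The deposited score is a raw count of cDNAs per 1-nt site, not normalized, and the deposited lists hold sites with scores from 1 upwards. They hold only sites kept by peak calling, whose cutoff was not recovered here and may differ between genes and lists. In PLEC, 38 of 61 IgG sites and 202 of 1062 PDCD4 sites had a score of 3. The bearing of the cutoff on scores and densities was not tested. The filter on scores greater than 5 was applied here. The aligner, its settings and the treatment of spliced reads are not given in the sources used here.

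Regions came from GENCODE release 44 (same build, later release) on the strand of the site. Where transcripts differed, coding sequence went before 3′UTR, then 5′UTR, non-coding exon and intron. Wilson intervals (95%) were used for shares and counting intervals (95%, from the Poisson error of each count) for log2 ratios, and a pseudocount of 1 cDNA was added in ratios over IgG. cDNAs at neighbouring sites are not known to be independent, so these intervals cover counting error only. Totals were 409308 cDNAs (PDCD4) and 276139 (IgG). Uniqueness was searched over 30 nt in the genome and in all transcripts. Context rates are the share of mRNA positions before each pair of bases that are listed. The analysis was run in Python 3.11.15 with pandas 2.3.3, numpy 2.4.6, matplotlib 3.10.9 and scipy 1.17.1, and the estimators were tested on simulated data. PLEC, the gene lists and the comparisons were chosen with earlier results of these data known. Genes named are PLEC, its listed partners (1 of them is not reported singly here), the 5 genes with the most exonic cDNAs per list and the 5 with the most similar region shares; sites named singly are the 10 highest and the IgG sites above 5. Stretches, clusters and exons named otherwise, and KRT14 among the markers, were named after their values were seen.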

Additional observations from a re-analysis of the deposited data

How the results depend on the processing

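No paired analysis was possible because the lists pool the replicates, and for the same reason no replicate could be left out. Of 31 alternative values, 18 stayed within the interval of the value reported, 12 moved outside it and 1 changed sign. The log2 ratio over IgG of 4.78 for scores above 5 was 3.90 over every listed site, and a score above 10 gave no value because no IgG site of PLEC reached it. The coding share of 81.7% was 84.1% above a score of 5, 89.1% above 10, 64.7% with any intron taken first and 79.1% with sites within 20 nt merged. The log2 density ratio of the repeat exon over the rod exon (0.76) was 1.02 above a score of 5, 1.97 above 10, 1.00 for summed scores and 0.33 (-0.18 to 0.83) for merged sites. That of exons 31 and 32 over the earlier coding exons (1.32) was 1.84 above a score of 5 and 0.58 without the last 60 nt of exons; above 10 the earlier exons had no site. That of the 3′UTR over the coding sequence (0.62) was -0.10 for merged sites. The share of U at the listed position (22.3%) was 17.8% above a score of 10. Merging counts a dense run as 1 site; the causes of the other shifts were not tested. The 31 exonic IgG sites limit every IgG profile.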
